A study of Mus musculus with 4 samples.

Results

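The genes described here are 38 type I interferon-stimulated genes, picked by name from the 55450 genes listed for 4 single-cell libraries of mouse liver. All 38 were found once, and each had at least 1 unique molecular identifier (UMI, the tag that marks 1 captured transcript) in every library. The libraries were of hepatic nonparenchymal cells, freed from the liver with most hepatocytes spun out, made with a droplet assay that reads the 3' end of transcripts, from wild-type C57B6 mice 18 to 20 weeks old. The control mouse received normal saline. The mouse called TAA received thioacetamide by intraperitoneal injection over 12 weeks, a hepatotoxin used to scar the liver. A mouse called TAA+C7.5 had the same injections and, from week 5, oral celecoxib at 7.5 mg/kg. The last mouse, TAA+C30, had the injections and 30 mg/kg. Celecoxib is an inhibitor of the cyclooxygenase COX-2. Each group was 1 mouse and 1 library, so group, mouse and library cannot be told apart, no p-value was computed, and every interval below is a 95% exact interval that covers counting error only.

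Type I interferons are secreted proteins made when cells sense foreign or misplaced nucleic acid. They bind a receptor present on most cells, and the kinases JAK1 and TYK2 then switch on a complex of transcription factors with STAT2 and IRF9 among its parts, which binds the interferon-stimulated response element (ISRE) in promoters. The genes it switches on encode sensors of viral nucleic acid, enzymes and binding proteins that block viral growth, and parts of the pathway itself, and in the liver they are made by macrophages, dendritic cells, neutrophils, endothelial cells and hepatocytes.

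RefSeq promoter windows (GRCm38.p6, 250 bases before to 50 after the start) were at hand for 27 of the 38 members. The ISRE was searched on both strands, as GAAA, any 2 bases and GAAA again, or as TTTC, any 2 bases and TTTC again, and 15 of the 27 windows held it (55.6%), against 3.99% of the 27025 genes with a window. The shorter STAT element TTCNNNGAA, called GAS, stood in 5 of the 27 (18.5%), against 9.55% of all genes. It overlapped an ISRE match in Bst2 and Ifitm3. A match is a run of letters, not a measured site. Shown here are 6 of the members described most fully below, all with an ISRE match. These 6 were highest in TAA in both neutrophils and monocytes or macrophages. So were others whose windows held no match, among them Irf7, Oasl1 and Xaf1. The 200 bases before the start of the 6 are given 5′ to 3′ on the gene's strand, with ISRE matches in capitals. They are from chr4:156200819-156201018 (Isg15, minus strand), chr19:34640689-34640888 (Ifit1, plus), chr19:34583329-34583528 (Ifit3, plus), chr19:34607757-34607956 (Ifit3b, plus), chr12:26456453-26456652 (Rsad2, minus) and chr8:71537473-71537672 (Bst2, minus).
Isg15: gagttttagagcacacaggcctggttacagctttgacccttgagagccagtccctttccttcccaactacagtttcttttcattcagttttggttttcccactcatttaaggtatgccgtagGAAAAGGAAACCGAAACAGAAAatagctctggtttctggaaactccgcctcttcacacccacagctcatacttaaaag
Ifit1: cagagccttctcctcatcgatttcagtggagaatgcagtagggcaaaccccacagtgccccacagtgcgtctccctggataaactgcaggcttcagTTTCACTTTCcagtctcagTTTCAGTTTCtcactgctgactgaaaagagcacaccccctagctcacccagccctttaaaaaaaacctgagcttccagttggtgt
Ifit3: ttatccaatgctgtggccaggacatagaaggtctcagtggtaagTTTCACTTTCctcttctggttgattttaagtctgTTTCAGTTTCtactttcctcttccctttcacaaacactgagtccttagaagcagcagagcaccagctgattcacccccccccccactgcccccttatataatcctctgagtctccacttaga
Ifit3b: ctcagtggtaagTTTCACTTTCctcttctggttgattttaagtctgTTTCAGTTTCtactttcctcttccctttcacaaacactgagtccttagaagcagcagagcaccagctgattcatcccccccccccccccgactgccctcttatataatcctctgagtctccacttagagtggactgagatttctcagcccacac
Rsad2: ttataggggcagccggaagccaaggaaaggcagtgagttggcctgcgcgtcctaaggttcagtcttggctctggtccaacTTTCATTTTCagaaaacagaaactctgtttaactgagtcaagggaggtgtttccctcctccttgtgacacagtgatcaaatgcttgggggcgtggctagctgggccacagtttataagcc
Bst2: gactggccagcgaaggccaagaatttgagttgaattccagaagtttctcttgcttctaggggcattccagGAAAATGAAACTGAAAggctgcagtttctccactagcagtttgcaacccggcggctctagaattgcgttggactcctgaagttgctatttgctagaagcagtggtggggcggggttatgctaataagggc
Isg15 held 3 overlapping matches that began 78, 72 and 66 bases before the start. Ifit1, Ifit3, Ifit3b and Bst2 held 2 each, and Rsad2 held 1. The Ifit3 and Ifit3b promoters carried the same pair of matched runs, TTTCACTTTC and TTTCAGTTTC, at 156 and 122 bases before the start in Ifit3 and at 188 and 154 in Ifit3b. Irf7, Irf9, Ifit2, Oasl1, Oasl2, Cmpk2, Herc6, Ifi35, Ifi44, Xaf1, Phf11d and Samd9l had a window without the ISRE letters as spelled here.

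In GENCODE M21 (GRCm38) the 5 IFIT members lie together on chromosome 19, Ifit3 at chr19:34583531-34588731 and Ifit3b at chr19:34607970-34613401, and the 6 OAS members lie on chromosome 5. Isg15 is at chr4:156199424-156200818, Irf7 at chr7:141262706-141266481, Bst2 at chr8:71534255-71537456 and Ifitm3 at chr7:141009586-141010770. Rsad2 (chr12:26442746-26456452) and Cmpk2 (chr12:26469204-26479837) are neighbours on opposite strands. Close copies can share 3' reads: of the runs of 50 bases in the last 500 of the transcript, 14.9% of those of Ifit3 were also in Ifit3b and 56.1% of those of Oas1a were also in Oas1g, so values within these pairs are uncertain. Another gene overlaps 12 members, among them Irf7 (Phrf1, opposite strand), Irf9 (Rnf31, same strand) and Parp9 (Dtx3l, opposite strand).

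The control library held 6583 barcodes, TAA 6915, TAA+C7.5 6117 and TAA+C30 6284, with 17888247 to 48419305 UMIs, and pairs of libraries shared 9 to 14 barcode sequences. Values given as 4 numbers follow this order of libraries throughout. After filtering, 5667, 6449, 5930 and 6055 cells remained, at a median of 3361, 4562, 1968 and 3100 UMIs. Cells were grouped into 16 classes by markers, with the 38 members kept out of the genes used to cluster them, and 5 classes had at least 100 cells in every library: neutrophils (262, 1140, 586 and 1116 cells), monocytes or macrophages (197, 1142, 519 and 1405), a class of natural killer and innate lymphoid cells (NK or ILC), T cells and B cells. RNA of other cell types was present at levels that differed between libraries: in B cells, 7 hepatocyte markers summed to 284, 76.3, 28.0 and 8.51 CPM and the 10 neutrophil markers to 64.7, 140, 111 and 723 CPM. CPM is the UMIs of a gene per 1000000 UMIs of the class.

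Levels below are CPM. Ratios between libraries are log2 values with 10 CPM added to both sides, which understates the change of low genes, and a member is counted as higher or lower when this ratio reached 1.5-fold. A member with under 10 UMIs over both libraries was not counted as measured. The 3 comparisons are TAA against control and each celecoxib library against TAA, so all 3 share the TAA library and the members' values are given side by side.

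The members differed most between TAA and control in the myeloid classes, where they were higher in TAA. Against control, the TAA library was at least 1.5-fold higher in 25 of 33 measured members in neutrophils, where 6.93% of all 8797 genes were, and in 27 of 38 in monocytes or macrophages, where 5.96% of 13395 genes were. No member was lower in either class, while 9.4% and 8.56% of all genes were. The median log2 ratio of the members was 0.95 in neutrophils and 0.88 in monocytes or macrophages, against -0.02 and -0.04 over all genes. In NK or ILC 11 of 28 were higher and 1 lower (10.0% and 17.1% of all genes), at a median of 0.35. In T cells 5 of 37 were higher and 2 lower (2.88% and 5.43% of all genes), and in B cells 2 of 36 were higher and none lower (2.04% and 5.8%), with member medians of -0.01 in both. The class values of T and B cells were thus spread around no difference, while most myeloid values lay above it.

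In both celecoxib libraries members were lower than in TAA, with the largest counts over whole classes in neutrophils. At 7.5 mg/kg, 20 of 33 members were at least 1.5-fold lower in neutrophils (6.02% of all genes) and 8 of 38 in monocytes or macrophages (1.84%). At 30 mg/kg, 17 of 34 were lower in neutrophils (14.8% of all genes) and 8 of 38 in monocytes or macrophages (2.37%). With each cluster given the same weight in both libraries, the counts at 30 mg/kg were 6 in neutrophils and 4 in monocytes or macrophages. The median log2 ratios were -0.65 and -0.59 in neutrophils and -0.33 and -0.32 in monocytes or macrophages, for the lower and the higher dose in each. Over all genes the medians lay between -0.03 and 0.02, except -0.19 in neutrophils at 30 mg/kg. No member was higher in either class at either dose, against 3.61% of all genes in neutrophils and 1.87% in monocytes or macrophages at 7.5 mg/kg and 3.27% and 1.39% at 30 mg/kg. T cells had 5 members lower at 7.5 mg/kg and 2 at 30 mg/kg, of 37 (1.34% and 0.553% of all genes), and none higher (1.12% and 0.763%). B cells had 2 and 1 lower of 35 (1.0% and 1.1%) and none higher (1.36% and 1.04%). NK or ILC had 2 of 30 lower and none higher at 7.5 mg/kg (6.21% and 5.97%), and 2 of 31 lower and 1 higher at 30 mg/kg (5.74% and 3.15%). Set against control, a comparison added after the values were seen, the celecoxib libraries were also higher in part of the members. In all, 11 of 31 members were higher and 2 lower in TAA+C7.5 neutrophils (8.6% and 13.6% of all genes), and 13 of 33 higher and 2 lower in TAA+C30 neutrophils (7.04% and 26.1%). Of 38 members in monocytes or macrophages, 19 and 18 were higher (6.72% and 5.19%) and none was lower (8.41% and 10.6%).

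The 38 members summed to 2542, 7330, 3853 and 4503 CPM in neutrophils and to 6316, 9649, 8340 and 8931 CPM in monocytes or macrophages. In T cells the sum was 1346, 1943, 1355 and 1590 CPM and in B cells 1078, 1286, 912.6 and 1048 CPM. Ifitm3, Ifi27l2a and Bst2 made 30.4%, 19.1% and 9.655% of all member UMIs, so these sums follow those 3 genes. The other 35 members summed to 1511, 4041, 2041 and 1888 CPM in neutrophils and to 1857, 4043, 2895 and 2908 CPM in monocytes or macrophages, where TAA was again the highest library. In T cells the other 35 summed to 910.4, 989.2, 744.2 and 773.3 CPM and in B cells to 671.1, 627, 515.2 and 515.3 CPM, with control and TAA close together. TAA was the library with the highest level for 30 of the 38 members in neutrophils and 34 in monocytes or macrophages, against 14 in T cells and 12 in B cells. Among classes with at least 50 cells in TAA, 15 members were highest there in monocytes or macrophages, 8 in neutrophils, 5 in endothelial cells and 1, Samd9l, in B cells.

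**Figure D1:**
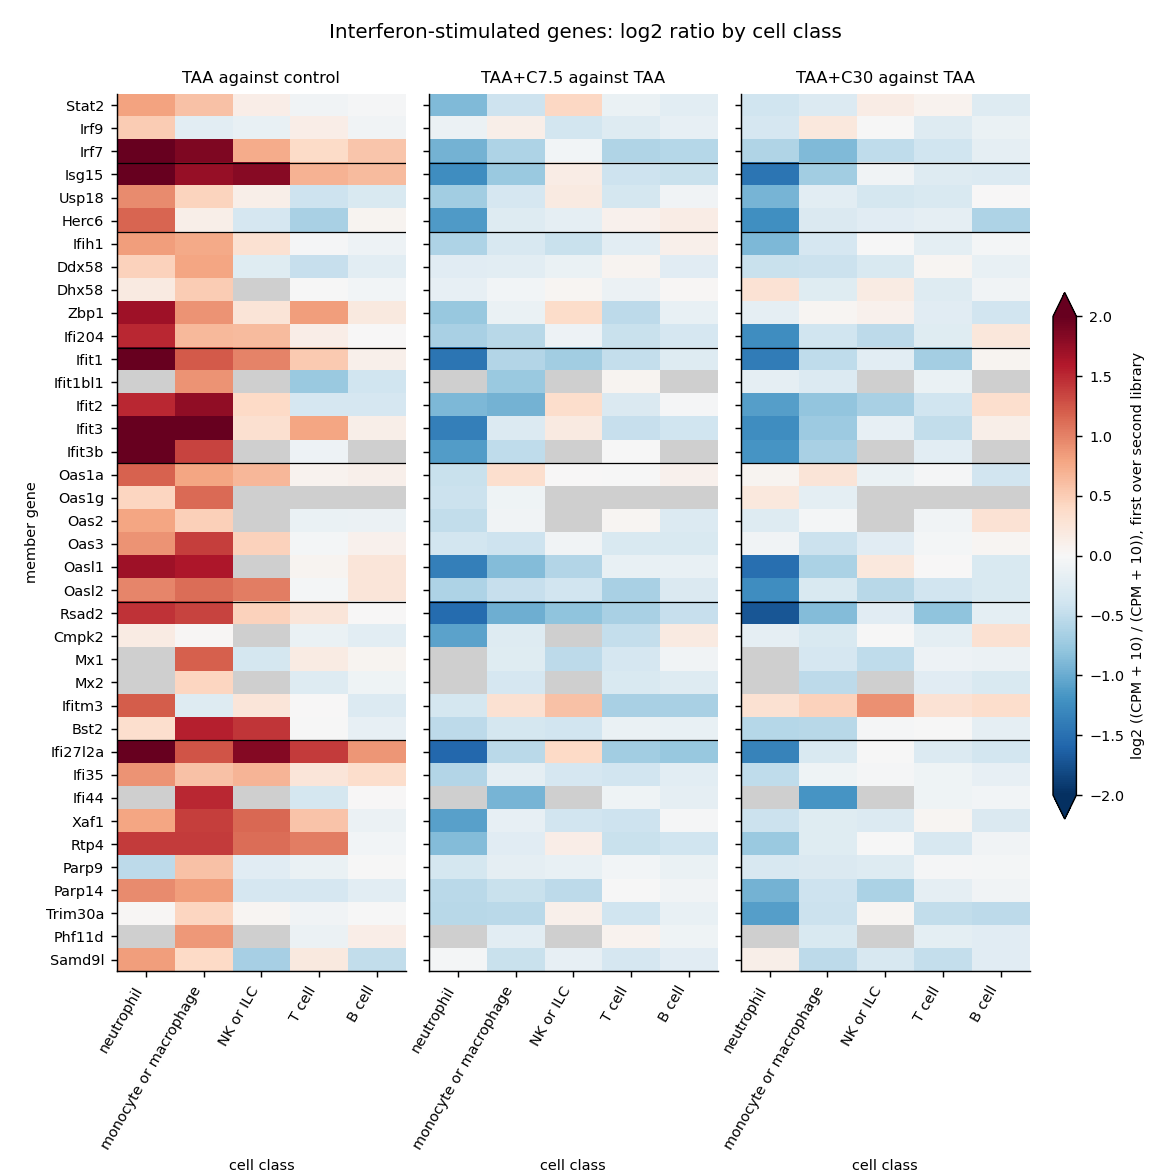
Log2 ratio of each of the 38 members (rows, grouped by role with black lines) in the 5 classes with at least 100 cells in every library (columns), for the 3 comparisons (panels). Colour runs from -2 to 2, values beyond are drawn at the end colours and grey marks members with under 10 UMIs. The neutrophil and monocyte or macrophage columns are mostly red for TAA against control and mostly blue for both celecoxib libraries against TAA.

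The 3 members that carry and feed the signal were Stat2 and Irf9, which are parts of that complex, and Irf7, the transcription factor that amplifies interferon production. Irf7 stood at 29.7, 148, 72.0 and 93.9 CPM in neutrophils and at 124, 481, 311 and 257 CPM in monocytes or macrophages. It was highest in TAA and lowest in control in both classes, and 5.00 times the control level in TAA neutrophils (3.23 to 8.16) and 3.87 times in monocytes or macrophages (3.30 to 4.57). The celecoxib libraries lay between: against TAA, Irf7 was 2.06 times lower at 7.5 mg/kg (1.56 to 2.76) and 1.58 times lower at 30 mg/kg (1.36 to 1.84) in neutrophils. The order of the doses turned in monocytes or macrophages, at 1.55 times (1.43 to 1.67) and 1.87 times lower (1.78 to 1.97). Stat2 stood at 7.07, 19.9, 6.21 and 12.6 CPM in neutrophils, from only 5 UMIs in control and 5 in TAA+C7.5. The monocyte or macrophage level of Stat2 was 51.3, 82.3, 59.3 and 66.2 CPM. Irf9 differed least of the 3: it was 46.6, 70.9, 64.6 and 53.9 CPM in neutrophils and 79.4, 67.3, 74.3 and 79.9 CPM in monocytes or macrophages. It did not reach the 1.5-fold threshold in any of the 3 comparisons in the 5 classes.

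The ISG15 system consists here of Isg15, a ubiquitin-like protein that is attached to other proteins, Herc6, the ligase that attaches it in mice, and Usp18, the protease that removes it and damps the receptor. Isg15 stood at 112, 809.6, 337 and 286 CPM in neutrophils. TAA was 7.25 times control (5.80 to 9.19), and the lower and the higher dose were 2.41 times (2.12 to 2.74) and 2.83 times (2.62 to 3.06) lower than TAA. Within clusters the order of the doses turned. In TAA, TAA+C7.5 and TAA+C30, Isg15 was 904, 386 and 493 CPM in the neutrophil cluster led by Stfa2l1. It was 908, 315.5 and 561 CPM in that led by Ccrl2. In the cluster led by Ngp it was 118, 198 and 157 CPM, lowest in TAA. The monocyte or macrophage level of Isg15 was 81.8, 297, 173 and 179.5 CPM, which is 3.63 times higher in TAA than in control (2.98 to 4.47). Herc6 (15.5, 47.3, 16.1 and 14.5 CPM) and Usp18 (5.65, 20.2, 8.69 and 5.81 CPM) followed the same order of TAA above the other 3 in neutrophils, and all 3 members of the system were at least 1.5-fold higher in TAA than in control and lower in both celecoxib libraries than in TAA there. The control and TAA+C7.5 levels of Usp18 were from few UMIs. Of the 3, only Isg15 reached the threshold in each comparison in monocytes or macrophages, although TMM scaling, which sets aside the most extreme genes, put 2 above it for TAA against control. Herc6 was 40.9, 45.4, 36.5 and 35.4 CPM and Usp18 was 25.7, 38.8, 28.8 and 32.1 CPM in that class, which leaves the libraries close together.

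The 5 IFIT members encode proteins that bind viral RNA lacking the cap marks of the host. Ifit3 stood at 9.89, 105.5, 34.8 and 38.7 CPM in neutrophils and at 21.7, 134, 109 and 77.0 CPM in monocytes or macrophages. In neutrophils this was 308 UMIs in TAA against 7 in control, a ratio of 10.7 with the wide interval of 5.12 to 26.8, and in monocytes or macrophages the ratio was 6.18 (4.23 to 9.41). Ifit1 was 28.3, 179, 58.4 and 62.0 CPM in neutrophils and Ifit2 was 26.5, 114.5, 54.4 and 62.2 CPM in monocytes or macrophages. In each of these, TAA was the highest library and control the lowest. Ifit2 (1.41, 22.6, 7.45 and 5.17 CPM) and Ifit3b (2.83, 52.4, 18.6 and 17.4 CPM) had the same order in neutrophils, from 1 and 2 control UMIs, as did Ifit1bl1 in monocytes or macrophages (4.01, 16.2, 5.68 and 11.7 CPM). All 5 IFIT members were at least 1.5-fold higher in TAA than in control in monocytes or macrophages, as were the 4 measured in neutrophils, where Ifit1bl1 had too few UMIs. Against TAA, the same 4 were lower in neutrophils at both doses, and 3 of 5 were lower at each dose in monocytes or macrophages. These IFIT counts were the same with TMM scaling.

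The OAS family makes or resembles enzymes that make short adenylate chains to switch on RNase L. Of its 6 members, 5 were higher in TAA than in control in neutrophils and 5 in monocytes or macrophages. Oasl1, which is known to limit translation of Irf7, stood at 29.7, 119, 39.7 and 35.5 CPM in neutrophils and at 17.6, 74.5, 36.1 and 44.3 CPM in monocytes or macrophages. Oasl2 stood at 195, 394, 253 and 162 CPM in neutrophils. These 2 were lower than TAA at both doses in neutrophils, and the other 4 were not: Oas3 was 62.2, 125, 94.4 and 118.5 CPM and Oas1a 4.24, 22.3, 13.7 and 23.6 CPM, so their TAA+C30 levels were close to those of TAA. The control level of Oas1a in neutrophils was from few UMIs. Oas1a in monocytes or macrophages was 34.5, 67.1, 86.9 and 82.6 CPM, with both celecoxib libraries above TAA. The OAS members thus did not share 1 order of libraries, and Oas1a and Oas1g share much of their 3' end.

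Among the nucleic acid sensors, Ifih1 (MDA5) and Ddx58 (RIG-I) detect double-stranded or uncapped RNA, Dhx58 (LGP2) tunes them, Zbp1 detects Z-form nucleic acid and Ifi204 detects DNA. Ifi204 stood at 50.9, 164, 100.6 and 63.6 CPM in neutrophils and at 330.4, 526, 356 and 398 CPM in monocytes or macrophages. Zbp1 stood at 14.1, 68.2, 36.0 and 59.1 CPM in neutrophils and at 73.0, 145, 131 and 150.2 CPM in monocytes or macrophages. Both were higher in TAA than in control in the 2 classes, and Zbp1 was about as high in TAA+C30 as in TAA. Ddx58 (41.0, 59.96, 49.7 and 41.6 CPM) and Dhx58 (8.48, 10.96, 8.69 and 15.5 CPM) stayed within the threshold in neutrophils. Ifih1, at 15.5, 35.6, 19.9 and 14.5 CPM there, passed it in each comparison, and in monocytes or macrophages (44.9, 83.1, 64.9 and 63.7 CPM) only for TAA against control. Of the 5 sensors, 4 were higher in TAA than in control in monocytes or macrophages, and none passed the threshold at either dose against TAA.

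Rsad2 (viperin) makes a chain-terminating nucleotide, and Cmpk2, its neighbour, is a mitochondrial nucleotide kinase. Rsad2 stood at 225, 626, 210 and 184 CPM in neutrophils, where TAA was 2.79 times control (2.37 to 3.30). The 2 doses were 2.99 times (2.55 to 3.52) and 3.40 times (3.09 to 3.74) lower than TAA. Over the whole class TAA+C7.5 was close to control and TAA+C30 below it. Within clusters TAA+C30 was above control. Rsad2 was 202, 609, 211 and 316 CPM in the neutrophil cluster led by Stfa2l1. In that led by Ccrl2 it was 404, 825.5, 315.5 and 515 CPM. A cluster led by Ngp, with 415 TAA+C30 cells, had 81.7 CPM in TAA+C30. Rsad2 in monocytes or macrophages was 72.2, 200.3, 96.6 and 106 CPM, and its celecoxib levels stayed above control. Cmpk2 had another order: it was 29.7, 34.3, 11.2 and 29.1 CPM in neutrophils and 29.7, 30.2, 23.5 and 22.6 CPM in monocytes or macrophages, and passed the threshold only as lower in TAA+C7.5 neutrophils, on 9 UMIs.

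Ifitm3 and Bst2 act at membranes, Ifitm3 by blocking fusion in endosomes and Bst2 (tetherin) by holding budding particles at the cell surface. Ifitm3 stood at 668, 1568, 1227 and 1931 CPM in neutrophils, so the TAA+C30 level was the highest, 1.23 times TAA (1.19 to 1.28). Ifitm3 in monocytes or macrophages was 3333, 2780, 3451 and 3822 CPM, with TAA the lowest library. Bst2 was 28.3, 38.4, 23.6 and 22.6 CPM in neutrophils, where the ratio of TAA to control was 1.36 with an interval that spans equality (0.839 to 2.31). Bst2 in monocytes or macrophages was 197, 600.4, 467 and 406 CPM, 3.04 times higher in TAA than in control (2.68 to 3.47). Within each cluster of this class the contrast was smaller. Bst2 was 315, 733, 772 and 797 CPM in the cluster led by Ms4a7 and 220, 370, 290 and 244 CPM in that led by F13a1. In the cluster led by Ace it was 107.5, 91.2, 87.7 and 76.6 CPM, highest in control. The part of cluster make-up in the class ratio was not tested. Mx1 and Mx2 are GTPases that block viral replication, but common inbred mouse strains are known to carry defective alleles of them, and the annotation lists Mx2 as a polymorphic pseudogene. They had too few UMIs in neutrophils. Mx1 in monocytes or macrophages was 12.8, 42.5, 34.5 and 31.7 CPM and Mx2 was 8.02, 14.3, 9.33 and 6.84 CPM.

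**Figure D2:**
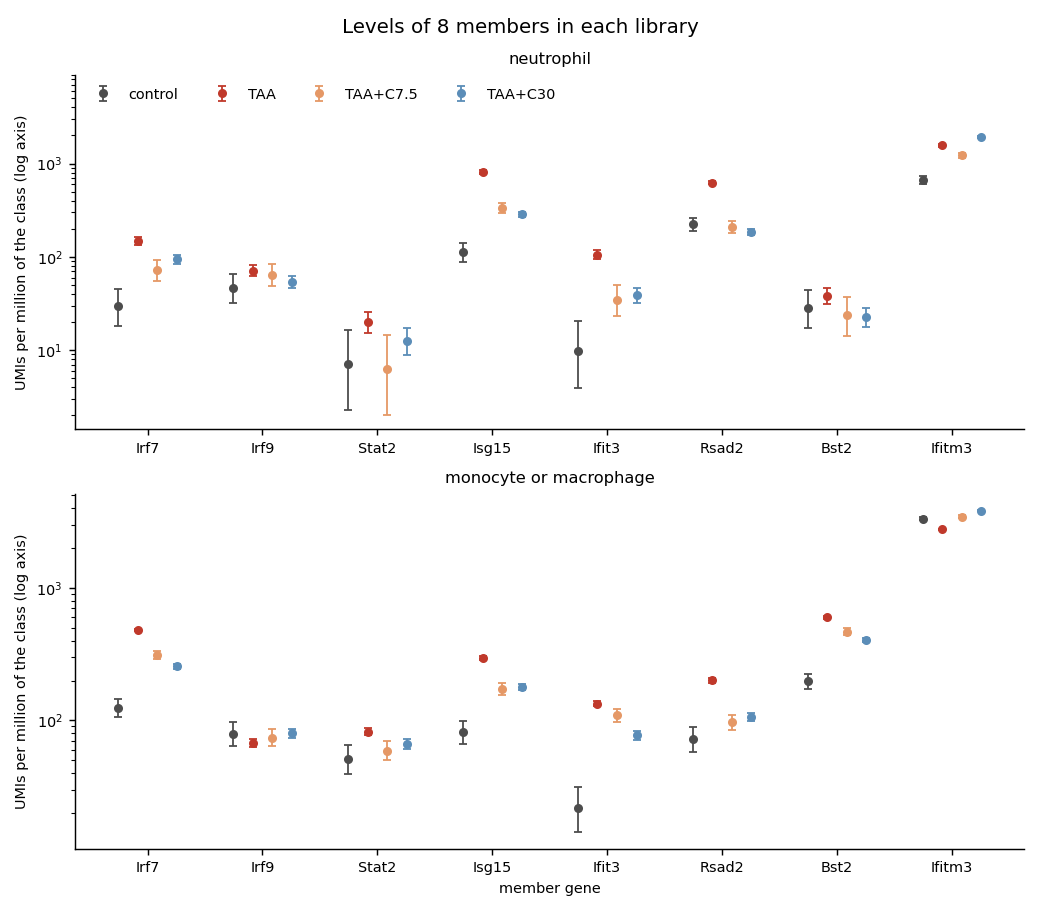
Level of 8 members (CPM of the class, log axis) in neutrophils (top) and monocytes or macrophages (bottom), 1 point per library with its 95% exact Poisson interval. TAA is the highest library for Irf7, Stat2, Isg15, Ifit3, Rsad2 and Bst2 in both panels, and Ifitm3 is highest in TAA+C30 in both.

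The other 10 members were Ifi27l2a, Xaf1, which promotes cell death, Ifi35, Ifi44, Rtp4, Parp9, Parp14, Trim30a, Phf11d and Samd9l. Ifi27l2a stood at 335, 1682, 561 and 662 CPM in neutrophils, 5.02 times higher in TAA than in control (4.41 to 5.75), and then 2.997 times (2.72 to 3.31) and 2.54 times (2.41 to 2.68) lower at the 2 doses. Within single neutrophil clusters TAA and TAA+C30 lay closer together. They were at 1548 and 963 CPM in the cluster led by Stfa2l1 and 2238 and 1490 CPM in that led by Ccrl2. In that led by Ngp they were at 672 and 417 CPM. Ifi27l2a in monocytes or macrophages was 929, 2225, 1527 and 1794 CPM. Rtp4, a chaperone of receptors, was 102, 284, 151.5 and 166 CPM in neutrophils and 61.8, 179, 152 and 150.2 CPM in monocytes or macrophages. For these 2 members TAA was again the highest library. Ifi44 had 8.02, 41.5, 17.1 and 12.8 CPM in monocytes or macrophages and too few UMIs in neutrophils. Samd9l and Trim30a had other orders in neutrophils: Samd9l was 57.9, 111, 108 and 121 CPM and Trim30a was 314, 319.7, 215 and 144 CPM. Xaf1 was 12.7, 29.5, 8.69 and 19.4 CPM, Ifi35 was 16.96, 40.4, 23.6 and 25.5 CPM and Parp14, an ADP-ribosyltransferase, was 26.9, 60.6, 38.5 and 26.8 CPM in neutrophils, all with TAA highest. The same held in monocytes or macrophages, where Xaf1 was 29.7, 93.7, 82.4 and 77.9 CPM, Parp14 73.8, 139, 100.2 and 102 CPM and Phf11d 32.9, 68.0, 57.2 and 52.9 CPM. Parp9 was the measured member with the lowest ratio of TAA to control in neutrophils, at 31.1, 18.5, 12.4 and 12.9 CPM. Of these 10 members, 6 of 8 measured were at least 1.5-fold higher in TAA than in control in neutrophils, and 7 of 10 in monocytes or macrophages.

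The neutrophil values at 30 mg/kg stood beside a different make-up of that class. Ratios of single members given above for neutrophils are over the whole class and do not take this into account. The 10 neutrophil marker genes made 114800, 169900, 169400 and 327300 CPM of the class in the 4 libraries, and the cluster whose leading genes were Ngp, Camp and Ltf, which encode granule proteins of immature neutrophils, held 1, 51, 57 and 415 cells. TMM scaling shifted the all-gene level of this comparison by -0.43 on the log2 scale, and under it 15 of 34 members were lower than in TAA and 1, Ifitm3, was higher, with a median of -0.23. With each cluster given the same weight in both libraries 6 members were lower, and without the cluster led by Ngp, an alternative chosen after the data were seen, 10 were lower. Within the other 2 neutrophil clusters the count was 9 of 32 in the cluster led by Stfa2l1 and Acod1 (5.71% of all genes) and 10 of 32 in the cluster led by Ccrl2 and Hcar2 (15% of all genes). Within the cluster led by Ngp 3 members were higher and 6 lower of 31 (8.35% and 9.31% of all genes). The TAA+C7.5 neutrophils had 18 of 32 lower in the cluster led by Stfa2l1 (7.05%) and 22 of 31 in that led by Ccrl2 (18.2%), and in the cluster led by Ngp 7 of 22 lower and 2 higher (16.0% and 14.5%).

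The difference between TAA and control was also present within the clusters led by Stfa2l1 and by Ccrl2. The summed level of all 38 members in the cluster led by Stfa2l1 was 2541, 7370, 3945 and 5434 CPM, and 25 of 32 members were at least 1.5-fold higher in TAA than in control (6.04% of all genes). In the cluster led by Ccrl2 it was 2640, 8500, 3724 and 5838 CPM, and 27 of 31 were higher (30.9% of all genes), with only 40 control cells. Within these clusters TAA was the highest and TAA+C30 the second highest of the 4. In the cluster led by Ngp the sums were 3805, 3676 and 3909 CPM in the TAA, TAA+C7.5 and TAA+C30 libraries, with intervals that overlapped. Median UMIs per neutrophil were 2688, 2337, 1205 and 1843.5, so depth was higher in control than in TAA. In neutrophils 10 monocyte or macrophage markers summed to 1617, 2694, 4239 and 7501 CPM, lowest in control and highest in TAA+C30, with Gpnmb at 0 in control; their part in the member values was not tested.

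In monocytes or macrophages fewer members passed when each cluster had the same weight in both libraries. The cluster led by Ms4a7, C1qb and Gpnmb held 31, 714, 174 and 415 cells, and with matched cluster weights 17 members rather than 27 were higher in TAA than in control and 4 rather than 8 were lower in TAA+C30 than in TAA. The cluster led by F13a1, Fn1 and Vcan had summed member levels of 7864, 13180, 9795 and 9680 CPM. In that cluster 26 of 38 members were higher in TAA than in control (7.33% of all genes), and 17 of 38 were lower at each dose than in TAA (3.05% and 1.23%). The cluster led by Ms4a7 had 5056, 8772, 7732 and 7703 CPM, with 14 of 38 higher and 2 lower in TAA than in control (11.3% and 14.0%), and 2 lower at 7.5 mg/kg and 1 at 30 mg/kg (2.11% and 1.1%). The third cluster, led by Ace and Cd300e, had 4854, 6930, 5479 and 6301 CPM, with 10 of 31 higher in TAA than in control (9.85%), 12 of 31 lower at 7.5 mg/kg and 9 of 32 lower at 30 mg/kg (9.49% and 11%). More members were thus lower than TAA in the F13a1 cluster than in the Ms4a7 cluster, a difference that was not itself tested. Markers of Kupffer cells differed in the monocyte or macrophage class: the 7 summed to 32.9, 535, 385 and 149.6 CPM, with Cd163 at 0 in control and Timd4 and Marco at 0 in TAA+C7.5, and their part in the result was not tested.

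**Figure D3:**
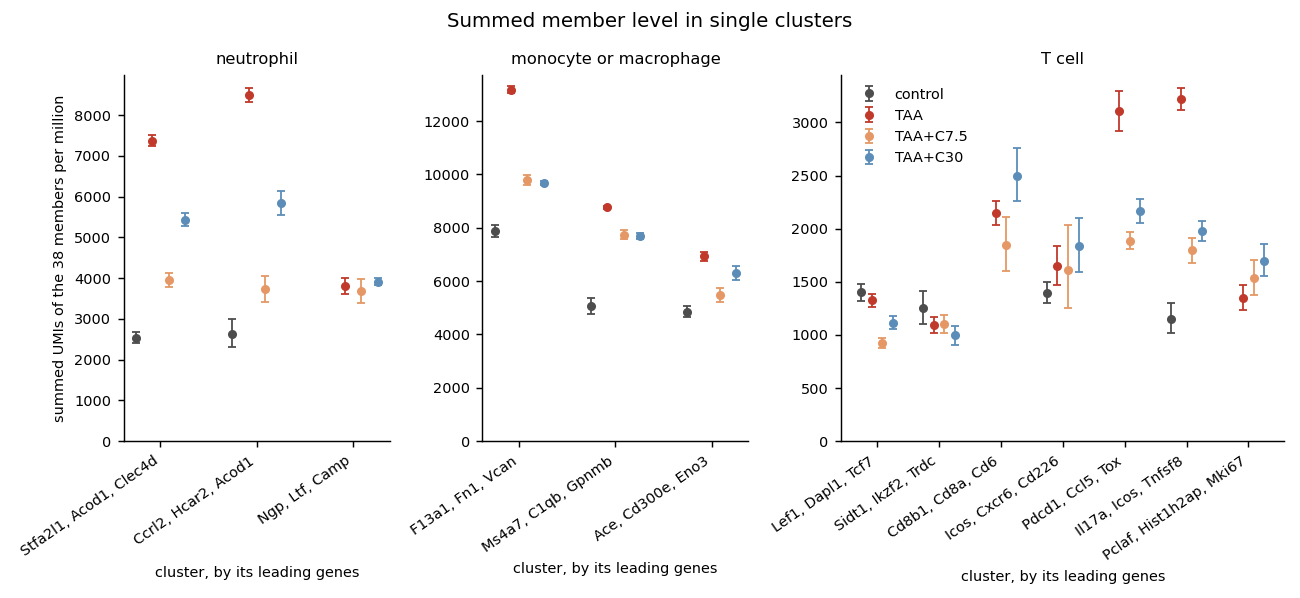
Summed level of the 38 members (CPM, with 95% exact Poisson intervals) in each cluster with at least 20 cells in at least 3 libraries, for neutrophils, monocytes or macrophages and T cells. TAA is highest in the neutrophil clusters led by Stfa2l1 and Ccrl2, in all 3 monocyte or macrophage clusters and in the T cell clusters led by Il17a and by Pdcd1, and the neutrophil cluster led by Ngp lies between 3676 and 3909 CPM in the 3 libraries shown.

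TAA also had the highest share of myeloid cells with several members. Cells were thinned to 1000 UMIs each, and cells with fewer were left out (5 to 166 a library in the 2 myeloid classes). Cells with UMIs of at least 5 members then made 6.43% of control neutrophils (3.72 to 10.2), 33.3% of TAA (30.5 to 36.2), 12.1% of TAA+C7.5 (9.18 to 15.7) and 15.3% of TAA+C30 (13.1 to 17.7). Without thinning these shares were 23.7%, 60.8%, 22.1% and 45.7%. The monocyte or macrophage shares, thinned, were 15.6%, 49.6%, 33.0% and 37.3%, and unthinned 63.5%, 95.7%, 74.9% and 89.1%. Median UMIs per cell of that class were 5661, 10931, 4452 and 6059, so depth was highest in TAA, as the member levels were. In B cells, which had low levels of most members, the thinned shares were 1.40%, 1.19%, 0.982% and 0.994%. The thinned share of neutrophils with an Isg15 UMI was 8.84%, 35.9%, 20.0% and 20.3%, against 0.234%, 1.57%, 0.227% and 0.71% of B cells, whose median depth was 3158.5, 3309, 1557 and 1904 UMIs. Member UMIs were spread less evenly over neutrophils than over monocytes or macrophages: the 10% of cells with most held 39.7%, 37.1%, 41.0% and 34.1% of them, against 26.3%, 24.2%, 24.2% and 23.1% in monocytes or macrophages.

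**Figure D4:**
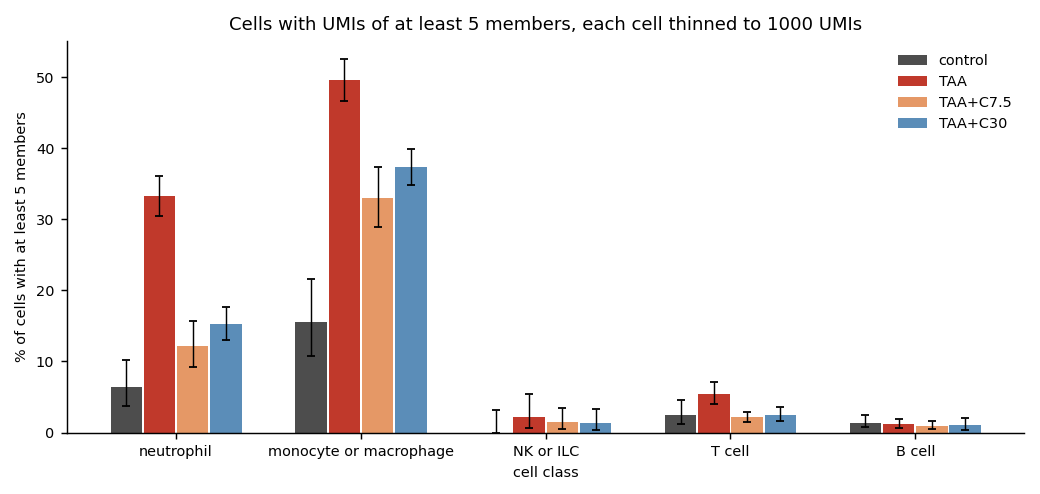
Share of cells (%) with UMIs of at least 5 of the 38 members after each cell was thinned to 1000 UMIs, by class and library, with 95% exact binomial intervals. Neutrophils reach 33.3% and monocytes or macrophages 49.6% in TAA, and no bar of the 3 lymphocyte classes exceeds 5.40%.

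In T cells few members differed over the whole class. There, Ifi27l2a was 307.5, 826.5, 506 and 682 CPM, 2.69 times higher in TAA than in control (2.47 to 2.93), and Isg15 was 62.4, 107.5, 78.6 and 87.9 CPM. Rtp4, Zbp1 and Ifit3 were the other 3 members higher in TAA, and Herc6 (60.4, 34.7, 37.4 and 29.4 CPM) and Ifit1bl1 were lower. Irf7 was 42.1, 57.7, 34.5 and 41.6 CPM, Bst2 102, 101, 91.8 and 100.1 CPM, and Rsad2 15.2, 19.8, 9.07 and 7.02 CPM. Stat2 was 24.4, 22.6, 19.7 and 24.2 CPM, Irf9 45.7, 50.8, 40.6 and 40.8 CPM, and Ifitm3 26.4, 26.6, 13.4 and 34.8 CPM. These levels mostly lay close together across libraries. Trim30a (114, 108, 79.2 and 73.6 CPM), Samd9l (78.2, 90.9, 70.4 and 62.7 CPM) and Ddx58 (60.9, 41.5, 43.6 and 42.9 CPM) did not reach the threshold.

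A T cell cluster led by Il17a, Icos, Tnfsf8 and Tnfrsf4 (51, 213, 227 and 276 cells) had larger ratios. Its summed member level was 1153, 3219, 1795 and 1978 CPM, 19 of 31 members were higher in TAA than in control and none lower (13.5% and 14.9% of all genes), and 15 of 31 and 15 of 32 were lower at the 2 doses than in TAA (7.89% and 4.98%). In this cluster Ifi27l2a was 341, 1708, 912 and 1035 CPM and Isg15 was 69.8, 188, 85.8 and 103 CPM. The cluster led by Lef1, Dapl1 and Tcf7, genes of naive T cells, had 1400, 1325, 924 and 1116 CPM, with no member higher and 9 of 34 lower in TAA than in control (4.18% and 11.8%). The 2 clusters thus had member medians of opposite sign for TAA against control, 0.77 and -0.26, while the all-gene medians were -0.04 and -0.11; the difference between the clusters was not tested, and they were singled out after their values were seen. Other T cell clusters had members in both directions. For TAA against control, 4 of 24 were higher and 6 lower in the cluster led by Sidt1 and Ikzf2 (12.4% and 18.3%), and 7 of 21 higher and 5 lower in that led by Icos and Cxcr6 (12% and 21.8%). Against TAA, 7 of 26 were higher and 1 lower at 7.5 mg/kg in the cluster led by Sidt1 (8.27% and 7.01%), and 11 of 28 lower and 2 higher in that led by Pdcd1 (6.7% and 11.9%). At 30 mg/kg 6 of 27 were higher and 4 lower in the cluster led by Cd8b1 and Cd8a (11.4% and 17%), and 6 of 17 higher and 2 lower in that led by Pclaf and Mki67, on 31 and 27 cells (8.75% and 16.5%). Markers of monocytes or macrophages summed to 528, 742, 352 and 569 CPM in the T cell class, which is the same order of TAA above the other 3, and their part was not tested.

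In NK or ILC, Isg15 was 13.0, 71.5, 80.2 and 67.3 CPM, 5.49 times higher in TAA than in control on 73 and 6 UMIs (2.41 to 15.5), and Bst2 was 28.2, 92.98, 68.8 and 91.6 CPM, 3.30 times higher (1.84 to 6.42), a direction that turned when cells were thinned to 1000 UMIs (log2 ratio -0.171). Irf7 was 41.2, 75.4, 72.6 and 49.7 CPM and Ifi35 28.2, 50.9, 38.2 and 49.7 CPM. Isg15 and Bst2 were thus lowest in control, with the celecoxib libraries near TAA. Ifitm3 was 21.7, 27.4, 45.8 and 60.4 CPM, the 1 member higher in TAA+C30 than in TAA (2.21 times, 1.39 to 3.58), which turned to a log2 ratio of -0.12 with classes taken from marker scores. Ifi27l2a was 6.50, 48.9, 67.5 and 48.7 CPM. Ifit3 (4.34 to 10.2 CPM), Rsad2 (1.27 to 9.79 CPM) and Stat2 (15.2 to 26.7 CPM) were low in every library of this class, and Irf9 was 47.7, 42.1, 30.6 and 41.9 CPM. Zbp1 was 30.4, 38.2, 52.2 and 41.0 CPM. Parp14 (91.1, 70.5, 45.8 and 41.9 CPM) and Samd9l (126, 75.4, 66.2 and 58.5 CPM) were highest in control. In NK or ILC 18, 18, 15 and 18 of the 38 members lay under 10% of their level in another class of the same library. Isg15 and Ifi27l2a were among them in TAA. Carry-over of free RNA cannot be told apart from low expression there.

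In B cells only Ifi27l2a (308, 576, 335 and 446 CPM, 1.87 times higher in TAA than in control, 1.73 to 2.02) and Isg15 (3.48, 10.8, 5.27 and 7.20 CPM) were higher in TAA. Samd9l was 182, 126, 106 and 107 CPM, Ddx58 51.9, 43.4, 35.7 and 37.98 CPM and Parp14 51.5, 43.4, 40.9 and 40.6 CPM. These 3 were highest in control but within the threshold. Irf7 was 18.8, 32.3, 18.6 and 27.5 CPM, Irf9 45.3, 42.8, 37.3 and 37.98 CPM, Stat2 32.7, 31.9, 26.3 and 24.9 CPM and Bst2 62.0, 54.4, 47.8 and 47.1 CPM. Trim30a was 87.4, 86.7, 77.0 and 57.0 CPM. Ifit3 (2.03 to 7.20 CPM), Rsad2 (1.62 to 6.02 CPM) and Ifitm3 (14.6 to 39.3 CPM) were low. The B cells of control and TAA lay mostly in different clusters: 559 control and 11 TAA cells were in a cluster led by Pax5, and 130 control and 1300 TAA cells in a cluster led by Ebf1 and Cd79a. Within the cluster led by Ebf1 6 of 34 members were higher and 3 lower in TAA than in control (7.07% and 10.5% of all genes), at a median of 0.14. In B cells 17, 26, 23 and 23 of the 38 members lay under 10% of their level in another class of the same library, where carry-over of free RNA cannot be told apart from low expression. Isg15 was among those members in TAA.

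Among the classes with fewer cells, conventional dendritic cells 2 (79, 340, 129 and 336 cells) had 24 of 38 members higher and 1 lower in TAA than in control (6.29% and 12.4% of all genes), at a median of 0.79. Their Isg15 was 55.2, 196, 131 and 100.5 CPM and their Rsad2 2.91, 61.9, 52.5 and 42.9 CPM, with the control Rsad2 level from few UMIs. Only 3 of 38 were lower at each dose (3.7% and 2.15%) and none higher (5.47% and 2.39%). Set against control, 22 of 34 members were higher than control in TAA+C7.5 (11%) and 23 of 38 in TAA+C30 (8.91%). Conventional dendritic cells 1 had 36 cells in control, too few to compare, and against TAA 14 of 36 members were lower and none higher at 7.5 mg/kg (13.7% and 6.51%), and 5 of 37 lower and 1 higher at 30 mg/kg (6.25% and 2.19%). Their Ifit2 was 55.5 CPM in TAA, 8.50 in TAA+C7.5 and 55.3 in TAA+C30. The lower dose stood apart from the other 2 libraries there, on 72 cells.

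Plasmacytoid dendritic cells (52, 134, 220 and 203 cells), known as the strongest producers of type I interferon, had 18 of 32 members higher in TAA than in control and none lower (10.3% and 11% of all genes). Bst2, which is also a surface marker of these cells, was 2956, 3321, 4293 and 3895 CPM there, and Irf7 204, 379, 269 and 297.5 CPM. Their Isg15 was 14.2, 109, 49.9 and 96.2 CPM. Against TAA 12 of 33 were lower and none higher at 7.5 mg/kg (5.19% and 5.17%), and 4 of 34 lower and 1 higher at 30 mg/kg (4.38% and 3.16%). Plasma cells had 8 of 19 lower and none higher at 7.5 mg/kg (4.18% and 4.78%), and 5 of 19 lower and 1 higher at 30 mg/kg (10.9% and 2.7%). In plasmacytoid dendritic cells Bst2 thus differed less between libraries than Isg15.

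Kupffer cells, the resident macrophages of the liver, had 368 and 125 cells in control and TAA and too few in the celecoxib libraries. In them 21 of 38 members were higher in TAA and 1 lower (14.0% and 15.5% of all genes). Their Isg15 was 14.4 and 104 CPM, Irf7 258 and 462 CPM and Ifi27l2a 352 and 1259 CPM. Depth of the Kupffer class was far lower for control, with a median of 1397 UMIs against 10539 UMIs for TAA. The part of this depth gap in the Kupffer counts and levels was not tested. Endothelial cells (2861, 304 and 66 in control, TAA and TAA+C7.5) had 16 of 35 higher and none lower in TAA (5.13% and 3.38%), with Isg15 at 20.2, 174 and 79.2 CPM, Ifit2 at 51.5, 174 and 113 CPM and Rsad2 at 84.6, 221 and 86.7 CPM. At 7.5 mg/kg 14 of 35 were lower than in TAA and 1 higher (12.3% and 8.89%). Different clusters held this class in the libraries: 1651 of the control cells were in a cluster led by Cyp26b1 with 9 TAA cells, and 216 of the TAA cells in a cluster led by Ednrb with 75 control cells. Within the cluster led by Ednrb 16 of 35 members were higher and none lower in TAA than in control (8.65% and 12% of all genes), and within that led by Fam167b and Fabp4, with 79 TAA and 1135 control cells, 15 of 31 were higher and 3 lower (16.5% and 25.7%). Cholangiocytes, the cells of bile ducts, had 10 of 37 higher in TAA and none lower (4.21% and 6.4%), with Isg15 at 40.7, 143, 66.0 and 128 CPM; 8 of 37 were lower than TAA and none higher at 7.5 mg/kg (2.27% and 2.73%), and 3 were lower and 2 higher at 30 mg/kg (3.94% and 3.61%). The few residual hepatocytes had 7 of 18 higher and 1 lower in TAA (26.3% and 17.7%), a share nearer to that of all genes. Members that passed the threshold in endothelial cells, cholangiocytes and Kupffer cells were thus nearly all higher in TAA.

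Isg15 and Ifi27l2a were the 2 members higher in TAA than in control in all 5 classes with at least 100 cells, and Rtp4 was higher in 4. Dhx58, Cmpk2, Mx2, Irf9, Parp9 and Trim30a were higher in none of them. In TAA, Isg15 in B cells and both Isg15 and Ifi27l2a in NK or ILC lay under 10% of their level in another class. Carry-over of free RNA cannot be told apart from low expression there. At a 2-fold threshold the count of members higher in B cells was 0. Over the 5 classes, 70 of 172 pairs of member and class were higher and 3 lower in TAA than in control, against 5.23% and 8.78% of all pairs of gene and class. At 7.5 mg/kg no pair was higher and 37 of 173 were lower than in TAA (2.53% and 2.91% of all pairs), and at 30 mg/kg 1 was higher and 30 of 175 lower (1.78% and 4.32%).

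Type I interferon genes had few UMIs in the libraries. Of 21 listed interferon genes of all types, 15 had no UMI in any kept cell and only Ifnb1 and Ifng had at least 10. Ifnb1, which encodes interferon beta, had 0, 51, 7 and 22 UMIs, in 0, 12, 3 and 9 cells. Most were in the monocyte or macrophage cluster led by Ms4a7 and Gpnmb, with 49 UMIs in 10 of 714 TAA cells, 3 UMIs in 1 of 174 TAA+C7.5 cells and 18 UMIs in 6 of 415 TAA+C30 cells. The 0 in 5667 control cells allows a share of all kept cells with a UMI of up to 0.0529%, but control had only 31 cells in that cluster and the limit does not apply to the share within it. Ifng, the type II interferon, had 695, 1019, 1294 and 1311 UMIs in 209, 335, 508 and 463 cells. It was 336, 201, 590 and 438 CPM in NK or ILC and 183, 126, 145.5 and 172 CPM in T cells, lowest in TAA in both. Single T cell clusters did not share this order. In the cluster led by Icos and Cxcr6, which held 297 of the control UMIs, 71 of 133 control and 16 of 47 TAA cells had an Ifng UMI. In the cluster led by Il17a, 6 of 51 control and 49 of 213 TAA cells had one. The part of cluster make-up in the class values was not tested.

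Of the genes upstream of the members, the interferon receptor genes Ifnar1 and Ifnar2 were within the threshold for TAA against control in neutrophils and in monocytes or macrophages. Ifnar1 was 2.28 times lower in TAA+C30 than in TAA neutrophils (51.97 and 118.5 CPM). Jak2, a kinase of cytokine receptors, was 2.05 times higher in TAA than in control neutrophils (89.8 and 43.8 CPM). It was 1.94 times lower in TAA+C30 than in TAA neutrophils. The neutrophil cluster led by Ngp held 51 cells in TAA and 415 in TAA+C30. Its part in the TAA+C30 neutrophil values of this paragraph was not tested. Of 20 sensing and induction genes, 1 of 14 measured was higher in TAA than in control in neutrophils (6.93% of all genes). In monocytes or macrophages 1 of 20 was higher and 1 lower (5.96% and 8.56%). In neutrophils at 30 mg/kg, 8 of 15 measured sensing and induction genes were lower than in TAA (14.8% of all genes), in the comparison whose all-gene level was shifted. A further list of 53 interferon-stimulated genes had 19 of 49 higher and none lower in TAA than in control in neutrophils (6.93% and 9.4% of all genes). In monocytes or macrophages 21 of 51 were higher and 4 lower (5.96% and 8.56%). The medians were 0.37 and 0.47. In that list Slfn5 was 63.6, 226, 91.9 and 64.2 CPM and Cxcl10, a chemokine, 5.65, 82.9, 23.6 and 22.0 CPM in neutrophils, and Lgals3bp was 114, 406, 216 and 213 CPM in monocytes or macrophages. Against TAA, 12 of 49 genes of this list were lower and 1 higher in neutrophils at 7.5 mg/kg (6.02% and 3.61% of all genes). At 30 mg/kg 18 were lower and 1 higher (14.8% and 3.27%), and Ifitm6 was 505 CPM in TAA and 2367 CPM in TAA+C30.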

How the data were processed

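Gene values came from UMI counts, whole numbers per gene and barcode in the matrices the authors deposited, made with Cell Ranger 3.1.0 on build mm10, per the submitters' processing notes; the annotation and cell calling settings are not given in the sources used here. Barcodes under 200 genes or over 20% mitochondrial UMIs, and doublets called with Scrublet in scanpy 1.11.5, were removed (121, 63, 153 and 123 doublets). Cells were clustered together (2000 variable genes without the members and listed interferon genes, 30 components, Leiden resolution 1) and clusters were named from marker lists, which left 7 of 43 unnamed. UMIs were summed per class and library. Ratios, with 10 CPM added, have exact conditional binomial intervals and levels exact Poisson intervals. The ratio method was tested on simulated counts with known folds, drawn from a pooled neutrophil profile. These held no variation between mice and no difference in cluster make-up or free RNA between libraries, so the test does not bear on those limits. Members and lists were chosen with earlier results of these data known. Named were all 38 members, 8 of them across each of the 5 larger classes, and the 4 with the largest ratio per class and comparison at 30 UMIs and 50 CPM. Comparisons with control, single clusters and the setting without 1 cluster were added after the data were seen. A fold against a library with 0 UMIs was not given. Counts over the list of receptor and signalling genes are not reported here.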

Additional observations from a re-analysis of the deposited data

How the results depend on the processing

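No paired analysis was possible because each group was 1 library and the labels carry no replicate numbers. For TAA against control, 70 pairs of member and class were higher; this became 36 with 50 CPM added and 40 at a 2-fold threshold. The 3 lower pairs became 1 with TMM scaling, 11 with 1 CPM added, 0 with 50 CPM added or at 2-fold, and 6 with cells thinned to 1000 UMIs or with matched cluster weights. For TAA+C7.5 against TAA, 0 pairs were higher; this became 2 with 1 CPM added, without the mitochondrial filter or with thinned cells, and 1 without doublet removal or in cells with at least 1000 UMIs. The 37 lower pairs became 68 with 1 CPM, 13 with 50 CPM and 10 at 2-fold. For TAA+C30 against TAA, 1 pair was higher; this became 2 with TMM, without doublet removal or thinned, 4 with 1 CPM, and 0 with 50 CPM, at 2-fold, without the mitochondrial filter or with classes from marker scores. The 30 lower pairs became 55 with 1 CPM, 15 with 50 CPM, 13 at 2-fold and 14 with matched cluster weights; the cause of the last was not tested. The other 56 counts stayed within 1.5 times. Of the class medians under other settings, 161 lay within the interval over members of the value reported and 34 did not. No neutrophil or monocyte or macrophage median changed sign, while the B and T cell medians for TAA against control, -0.006 and -0.013, turned to as much as 0.069 with TMM and 0.259 with thinned cells, and both NK or ILC medians against TAA turned to 0.05 with thinned cells. Of single member ratios 187 lay outside their counting interval, and 3 that had reached 1.5-fold changed sign: Bst2 in NK or ILC for TAA against control (-0.171 thinned), Stat2 in monocytes or macrophages for TAA against control (-0.006 with matched weights) and Ifitm3 in NK or ILC for TAA+C30 against TAA (-0.12 with marker scores). Without the neutrophil cluster led by Ngp, a setting added after the data were seen, the lower pairs were 33 at 7.5 mg/kg and 23 at 30 mg/kg. TMM moved the all-gene level of TAA against control by -0.25 to -0.14 in the 5 main classes. Low depth limits members under about 10 CPM, and 1 mouse a group limits all comparisons.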
